A study of Mus musculus with 31 samples.

Results

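Dexamethasone, a synthetic glucocorticoid, was added alone to cultured inflammatory T helper 17 (Th17Inf) cells of the mouse, and their messenger RNA was compared with that of cells cultured without addition. The comparison was set by the sample labels, with 3 Dex libraries against 3 Ctrl libraries, 6 of the 31 libraries of the series, and every gene of the table was a member. All 6 libraries were from wild-type C57/B6 T cells that came originally from spleen and draining lymph node (dLN) and were differentiated to Th17Inf cells in vitro. The Dex libraries were from cells treated with dexamethasone for 2 days, and the Ctrl libraries from cells labelled as control at the same 2 days. Each library was made from 2000 sorted live cells. Cells given TGF-β1 (TGF, 3 libraries) or TGF-β1 with dexamethasone (TGF+Dex, 3 libraries), of the same strain and time, entered the fit and 1 further comparison. The dose of dexamethasone, any vehicle in the Ctrl cultures, the age of the mice and the number of mice or cultures are not given in the sources used here, so p-values measure only the spread between libraries, which may be technical.

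Th17 cells are CD4 T cells that make interleukin 17 and related cytokines. Inflammatory Th17 cells drive tissue damage in autoimmune disease, whereas homeostatic Th17 cells are tied to barrier tissues. Glucocorticoids enter the cell and bind the glucocorticoid receptor, encoded by Nr3c1, which is held ready by chaperones in the cytosol. The loaded receptor moves to the nucleus, where it binds palindromic response elements to raise genes such as Tsc22d3 and Fkbp5, and where it represses genes driven by the factors AP-1 and NF-kB, many cytokine genes among them. T cells can also make steroids themselves, beginning with the enzyme encoded by Cyp11a1.

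The 6 libraries held 2821388 to 3926168 counts, and 14070 to 14832 genes had a count. A level that rests on 3 counts, the floor taken for a gene at 0, was 0.73 to 1.05 CPM in the libraries. CPM is the count of a gene scaled to a common library total and corrected for composition, and levels are compared between libraries and not between genes. A set of 15 repeat-like predicted genes took 17.7% to 21.5% of the Ctrl counts, 20.9% and 22.3% in Dex replicates 1 and 2, and 12.3% in Dex replicate 3, which stood apart. The libraries carried T cell genes, with Cd4 at 229 ± 12.9 CPM in Ctrl and 226 ± 18.5 in Dex (SD, n = 3). Il17a, which defines Th17 cells, was low but present in every library. Summed T cell markers (13 genes) stood at 3765 to 3885 CPM in Ctrl and 3526 to 3651 in Dex, groups that did not overlap. Summed markers of CD8 T and NK cells (12 genes) stood at 137.5 to 157.5 CPM in Ctrl and 74.1 to 107.8 in Dex. Ncr1 and Klra8 were at 0 in both groups, and Cd8a and Klrb1c were at 0 in Dex. Most of this sum was Nkg7. Of the 4 tested members 0 passed, and 3 had a positive fold change and 1, Nkg7, a negative one, so the lower sum was not shared by the other tested members. Of 22 myeloid markers, Csf1r, C1qa, Adgre1, Itgam, Fcer1g, Cx3cr1 and Mrc1 were among those at 0 in both groups, and the sums overlapped (708 to 737 and 669 to 752 CPM). Of the 12 B and plasma cell markers, Pax5, Ighd and Blk were among those at 0 in both groups. Other members had counts, and the sums overlapped (86.4 to 98.67 CPM in Ctrl and 81.55 to 92.35 in Dex). The 12 neutrophil markers summed to 4.09 to 6.18 CPM. The part of these shifts, and of Dex replicate 3, in the results was not tested. In bulk RNA, fewer cells of a type and less RNA per cell cannot be told apart.

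Genes passed the test in both directions. Of 10332 genes tested, 95 were higher with dexamethasone (0.919%) and 94 were lower (0.91%), 1.83% in all, at an adjusted p under 0.05 in edgeR's quasi-likelihood test with Benjamini-Hochberg adjustment over all genes tested. An unadjusted p under 0.05 was reached by 1364 genes (13.2%). Most changes were modest, with 27 of the higher and 17 of the lower genes at or past 2-fold and 32 and 45 under 1.5-fold. The median log2 fold change was 0.72 for the higher and -0.64 for the lower genes, against 0.00 over all tested genes. The libraries of both groups did not overlap in any of the 189 genes, which was so for 19.3% of all tested genes, and these were picked on the same libraries. The counts depended on the libraries and on scaling. They were 63 higher and 66 lower without Dex replicate 3, fell as low as 41 higher without Ctrl replicate 3 or without Dex replicate 1 and 37 lower without either, and were 37 higher and 18 lower when libraries were scaled by total count alone, without the correction for composition.

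**Figure D1:**
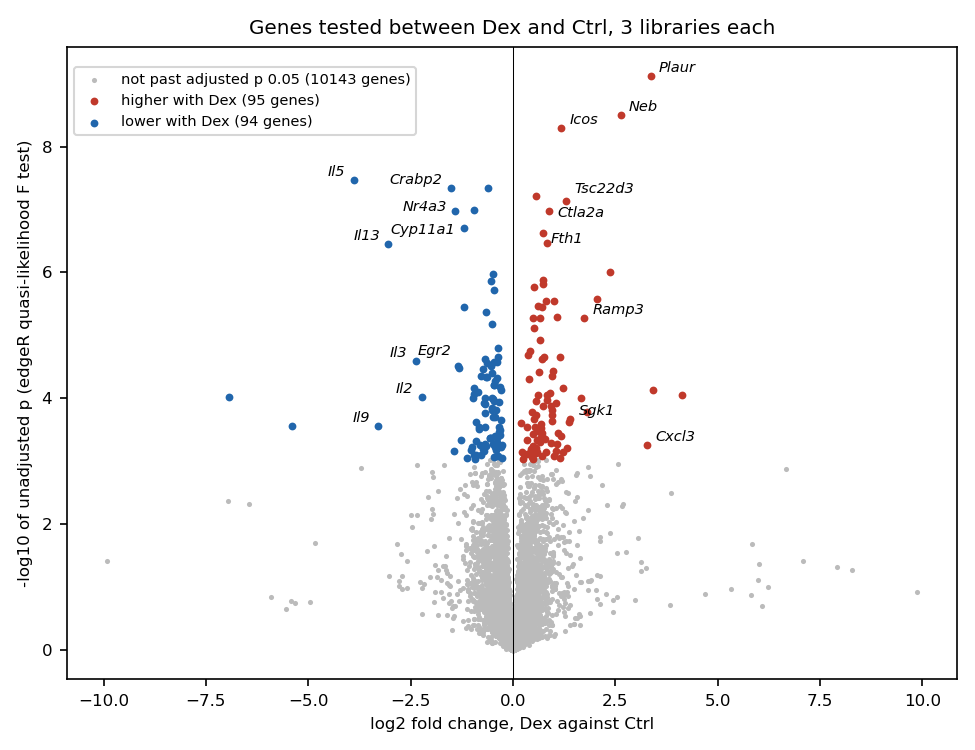
Each of 10332 tested genes is a point, with the log2 fold change of Dex against Ctrl on the x axis and the negative log10 of the unadjusted p of edgeR's test on the y axis (3 libraries a group). The 95 higher genes are red, led by Plaur, Neb and Icos, and the 94 lower genes are blue, with Il5 and Crabp2 among those of smallest p, with fold changes of genes at 0 in 1 group depending on the fit.

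The receptor and its known targets were examined first. Nr3c1 had 13, 11 and 13 counts in the Ctrl libraries and 11, 16 and 22 in Dex, or 3.57 ± 0.851 and 4.98 ± 1.95 CPM, and did not pass (edgeR adjusted p = 0.589). None of the 15 tested genes of the receptor and chaperone list passed, with a median log2 fold change of -0.01. Of 40 genes known to be induced by glucocorticoids, 30 were tested, 4 rose and 0 fell, where 0.919% of all tested genes were higher. Their median was 0.26 against 0.00 over all genes, with 20 fold changes positive and 10 negative. Tsc22d3 encodes GILZ, a leucine zipper protein that restrains AP-1 and NF-kB (chromosome X, 140539528 to 140600659, GRCm38). It stood at 45.8, 45.8 and 50.1 CPM in the Ctrl libraries and at 118, 119 and 109.6 in Dex. Every Dex library was above every Ctrl library by a margin far wider than the spread within either group, and the log2 fold change was 1.29 ± 0.12 (SE, edgeR adjusted p = 9.5e-05).

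Sgk1 encodes a kinase that regulates ion channels and salt sensing in T cells. Its level was 8.40, 6.00 and 5.11 CPM in Ctrl and 18.8, 18.3 and 13.3 in Dex, and the log2 fold change was 1.40 ± 0.27 (edgeR adjusted p = 0.0214). The groups did not overlap, and Dex replicate 3 was the lowest of its group. Txnip, which encodes an inhibitor of thioredoxin and of glucose uptake, rose from 22.9 ± 3.41 to 47.5 ± 4.598 CPM (log2 1.06 ± 0.14, edgeR adjusted p = 0.00165). Mt1, a metal-binding metallothionein, rose from 1114 ± 92.2 to 1413 ± 71.8 CPM (log2 0.34 ± 0.07, edgeR adjusted p = 0.0344). Other well-known targets did not pass. Fkbp5, a co-chaperone that dampens the receptor, stood at 4.35 ± 1.03 and 8.36 ± 1.39 CPM (edgeR adjusted p = 0.132), without overlap, as in 19.3% of all tested genes. The clock gene Per1 stood at 47.5 and 54.4 CPM, the phosphatase gene Dusp1 at 18.7 and 24.6, and Nfkbia, which encodes the NF-kB inhibitor IκBα, at 520.2 and 467 (edgeR adjusted p = 0.623, 0.264 and 0.449). The call of Sgk1 ended without Ctrl replicate 2 or 3 or Dex replicate 1 or 2 (edgeR adjusted p from 0.0787 to 0.106). That of Mt1 ended without 1 of 7 libraries, Ctrl replicates 2 and 3, Dex replicates 1, 2 and 3, TGF replicate 1 and TGF+Dex replicate 3 (0.0533 to 0.136), and with total count scaling (0.299).

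A promoter window of Sgk1, 250 bases before to 50 after an annotated start in RefSeq (GRCm38.p6), is printed because it was the only window among the tested genes that held the full palindrome of the glucocorticoid response element, AGAACA and TGTTCT with any 3 bases between them. The window lies at chr10:21993640-21993939 on the plus strand, and the capitals mark the element, 189 to 175 bases before the start.

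Sgk1: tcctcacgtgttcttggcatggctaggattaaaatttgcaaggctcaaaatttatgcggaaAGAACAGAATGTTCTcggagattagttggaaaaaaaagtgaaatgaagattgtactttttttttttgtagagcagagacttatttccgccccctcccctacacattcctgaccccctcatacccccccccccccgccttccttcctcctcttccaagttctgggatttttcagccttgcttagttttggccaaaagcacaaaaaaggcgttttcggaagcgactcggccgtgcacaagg

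Searched on both strands, the element was in 3 of 32851 windows of all promoters (0.00913%). Windows were at hand for 63 of the 95 higher genes (66.3%), 72 of the 94 lower genes (76.6%) and 8069 of the 10332 tested genes (78.1%), so a comparison of motif shares between these sets is void. A match is only a stretch of letters in the window and was not tested for binding.

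The strongest inductions were in genes outside the classic list. Plaur encodes the urokinase receptor, which gathers the protease urokinase at the cell surface (chromosome 7, 24462484 to 24475968). It stood at 3.50, 1.91 and 3.65 CPM in the Ctrl libraries and at 33.9, 30.9 and 28.9 in Dex. The gene was near the floor in all Ctrl libraries and about alike in all Dex libraries, 10.3-fold higher (log2 3.36 ± 0.21, edgeR adjusted p = 7.76e-06). Its promoter window (RefSeq GRCm38.p6, chr7:24462233-24462532, plus strand) is shown with a match to the AP-1 motif, TGACTCA, in capitals, 69 to 63 bases before the start. The motif TGANTCA, searched on both strands, was in 7.81% of all promoter windows and 4.85% of those of tested genes. The match was not tested for binding or for a part in the rise of Plaur.

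Plaur: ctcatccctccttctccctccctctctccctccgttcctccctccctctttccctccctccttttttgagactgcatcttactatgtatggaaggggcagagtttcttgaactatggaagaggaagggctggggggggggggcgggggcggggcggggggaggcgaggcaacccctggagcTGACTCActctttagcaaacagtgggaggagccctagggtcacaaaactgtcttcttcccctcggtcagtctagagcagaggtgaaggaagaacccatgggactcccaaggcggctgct

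Neb encodes nebulin, a giant protein of muscle thin filaments. It stood at 3.50, 6.00 and 4.38 CPM in Ctrl and at 26.8, 32.6 and 28.0 in Dex, with no overlap (log2 2.63 ± 0.18, edgeR adjusted p = 1.62e-05). Sv2c, a synaptic vesicle glycoprotein gene, rose from 4.304 ± 0.625 to 22.2 ± 1.65 CPM (log2 2.38 ± 0.27, edgeR adjusted p = 0.000641). Plaur, Neb and Sv2c lay under the level set for naming genes by fold, a mean log2 CPM of 4, so Neb and Sv2c were picked on their values, and Plaur belonged to the protease list. Ramp3, a partner of calcitonin-family receptors, stood at 10.1, 20.7 and 14.6 CPM in Ctrl and 47.2, 56.4 and 50.1 in Dex (log2 1.74 ± 0.23, edgeR adjusted p = 0.00165). Icos encodes an inducible co-stimulatory receptor of the CD28 family. It stood at 52.5, 51.2 and 59.6 CPM in Ctrl and 130.2, 116 and 124 in Dex, and the narrow spread gave 1 of the smallest adjusted p values of the comparison (log2 1.18 ± 0.09, edgeR adjusted p = 1.76e-05).

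Further genes named by fold roughly doubled. Isg20, an interferon-inducible exonuclease gene, rose from 21.7 ± 7.85 to 54.7 ± 13.6 CPM (log2 1.36 ± 0.27), and Olfr1033, an olfactory receptor gene, from 14.3 ± 6.68 to 35.3 ± 1.77 (1.33 ± 0.29). Tgfb3 encodes the cytokine TGF-β3 and rose from 10.8 ± 2.50 to 24.8 ± 4.84 CPM (1.22 ± 0.21). Enpp2 encodes autotaxin, which makes the lipid mediator lysophosphatidic acid, and rose from 16.6 ± 3.10 to 38.8 ± 10.4 CPM (1.21 ± 0.27). The tetraspanin gene Tspan6 rose by 1.11 ± 0.23 and Adamtsl4, of the extracellular matrix, by 1.06 ± 0.23 on the log2 scale. Gng2, a G protein subunit gene, rose from 38.9 ± 3.62 to 78.9 ± 12.8 CPM (1.01 ± 0.13), and Pdcd4, which encodes an inhibitor of translation, from 14.5 ± 1.22 to 28.6 ± 4.57 (0.98 ± 0.16). The edgeR adjusted p values of these 8 genes lay between 0.00118 and 0.0431. Gng2 and Pdcd4 kept their calls without any 1 of the 12 libraries, while the calls of Isg20, Tgfb3, Tspan6, Adamtsl4, Enpp2 and Olfr1033 ended without 1 of 4 to 7 libraries. The libraries were Ctrl replicates 2 and 3 and Dex replicates 1 and 2 for Isg20 and Tgfb3 (edgeR adjusted p from 0.0517 to 0.107). They were all 3 Ctrl libraries and Dex replicates 1 and 3 for Tspan6 and Enpp2, with TGF replicates 2 and 3 for Enpp2 (0.0533 to 0.164). For Adamtsl4 they were all 3 Ctrl libraries, Dex replicates 1 and 2 and TGF+Dex replicate 1, and for Olfr1033 Ctrl replicates 2 and 3, all 3 Dex libraries, TGF replicate 3 and TGF+Dex replicate 2 (0.0503 to 0.153).

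**Figure D2:**
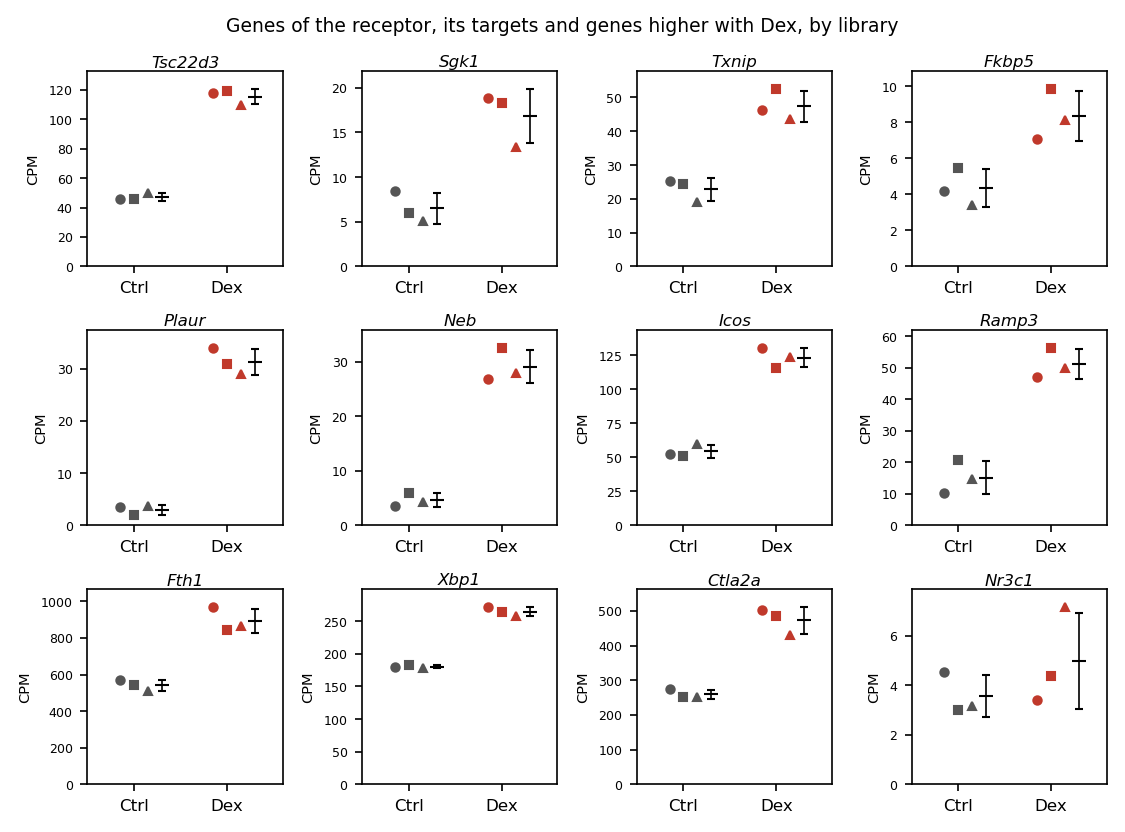
The panels show CPM on y axes that start at 0, 1 point per library (circle, square and triangle for replicates 1, 2 and 3), with the mean and SD of 3 libraries to the right of the points. Dex libraries lie above all Ctrl libraries for 11 of the 12 genes, Fkbp5 included although it did not pass the test, and the groups overlap for Nr3c1.

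Several abundant transcripts rose by smaller factors. Fth1, the heavy chain of the iron store ferritin, stood at 571, 543 and 510.2 CPM in Ctrl and 969.6, 843 and 865 in Dex, without overlap (log2 0.72 ± 0.07, edgeR adjusted p = 0.000188). Ctla2a, which encodes an inhibitor of cathepsins, stood at 275.0, 251.6 and 251.2 CPM in Ctrl and 503, 486 and 429.9 in Dex (0.87 ± 0.08, edgeR adjusted p = 9.88e-05). Its reads can be shared with the close copy Ctla2b, at 11.1 ± 7.09 and 26.0 ± 3.58 CPM (edgeR adjusted p = 0.132), and with an overlapping predicted gene, so the split between them is uncertain. Xbp1, a transcription factor gene of secretion and the unfolded protein response, stood at 179, 182 and 178 CPM in Ctrl and 272, 264 and 258 in Dex (0.56 ± 0.05, edgeR adjusted p = 8.99e-05). It was the only 1 of 20 tested genes of the ER stress list to pass, where 1.83% of all tested genes did, and the list median was -0.01. Fth1 and Mt1 were the 2 genes of the 13 tested in the iron and metallothionein list to pass, and the companion metallothionein gene Mt2 stood at 354 ± 25.5 and 461 ± 23.6 CPM (edgeR adjusted p = 0.084).

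Among the most counted genes that rose were Vim, the intermediate filament vimentin, from 2234 ± 168 to 2944 ± 156 CPM (log2 0.40 ± 0.07), and Ecm1, a secreted matrix protein, from 424 ± 30.1 to 672 ± 82.6 (0.67 ± 0.10). Fkbp1a, which encodes the immunophilin FKBP12, rose from 527 ± 1.51 to 742 ± 14.6 CPM (0.49 ± 0.07), and the surface protein gene Ly6e from 667 ± 40.8 to 886 ± 19.6 (0.41 ± 0.06). The edgeR adjusted p values of these 4 genes were between 0.00165 and 0.00819. With total count scaling, Vim, Fkbp1a and Ly6e no longer passed (edgeR adjusted p from 0.0783 to 0.182).

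Most tested genes of the effector cytokine list fell. Of 22 effector cytokine genes 14 were tested, and 9 fell and 0 rose, with a median log2 fold change of -0.79 against 0.00 over all genes, of which 0.91% were lower. Il5, which drives eosinophils, fell furthest (chromosome 11, 53720794 to 53725106). It stood at 35.3, 28.3 and 27.0 CPM in the Ctrl libraries and at 1.85, 3.01 and 0.975 in Dex. The Dex libraries were near the floor, and the fall was 14.8-fold (log2 -3.89 ± 0.33, edgeR adjusted p = 7.83e-05). Il13, a cytokine of allergic inflammation and the neighbour of Il5 on chromosome 11, stood at 43.0, 36.8 and 41.1 CPM in Ctrl and 6.79, 2.74 and 5.20 in Dex (log2 -3.05 ± 0.32, edgeR adjusted p = 0.000241). Again both groups were far apart. Il9, a growth factor of mast cells, stood at 46.5, 17.4 and 41.9 CPM in Ctrl and 4.94, 1.64 and 4.23 in Dex (log2 -3.30 ± 0.62, edgeR adjusted p = 0.0255). Replicate 2 was the lowest library of both groups.

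Il3, a growth factor of blood precursors, stood at 96.2, 49.3 and 66.5 CPM in Ctrl and 13.6, 13.4 and 13.7 in Dex, so that the groups were far apart though the Ctrl libraries spread widely (log2 -2.37 ± 0.36, edgeR adjusted p = 0.00583). Il2, the main growth factor of T cells, stood at 78.4, 78.0 and 114 CPM in Ctrl and 12.7, 23.8 and 21.1 in Dex (log2 -2.23 ± 0.38, edgeR adjusted p = 0.0127). Tnf, a central inflammatory cytokine, stood at 35.7, 55.6 and 55.3 CPM in Ctrl and 24.1, 27.9 and 27.0 in Dex (log2 -0.90 ± 0.18, edgeR adjusted p = 0.0228). Its Ctrl replicate 1 lay closest to the Dex libraries. Smaller falls were seen in Il24, of the IL-10 family, from 861 ± 98.8 to 555 ± 58.0 CPM (-0.63 ± 0.10), Lif, a cytokine of the IL-6 family, from 95.9 ± 4.12 to 67.0 ± 2.82 (-0.52 ± 0.08), and Lta, lymphotoxin α, from 225 ± 8.28 to 173 ± 3.30 (-0.37 ± 0.06). Their edgeR adjusted p values lay between 0.00547 and 0.00802.

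Other cytokines of the list did not pass. Ifng, the cytokine of Th1 cells, had 31, 5 and 9 counts in the Ctrl libraries and 0 in all 3 Dex libraries (edgeR adjusted p = 0.114). Against a floor of 3 counts a library it was at least 5.29-fold lower, or 1.96-fold without Ctrl replicate 1, and the list median was -0.79 also with Ifng at that bound. Il21, made by Th17 and follicular helper cells, stood at 169 ± 14.9 and 149 ± 21.3 CPM (edgeR adjusted p = 0.516). Il4, the defining Th2 cytokine, stood at 47.4 ± 4.84 and 29.7 ± 7.79 CPM (0.195), and Gata3, the Th2 master regulator, at 112 ± 6.19 and 65.3 ± 16.6 (0.11), both without overlap between the groups. Groups without overlap were found in 19.3% of all tested genes. The falls of Il5, Il13, Il3, Il24, Lif and Lta were called without any 1 of the 12 libraries, but those of Il24, Lif, Lta, Il2, Il9 and Tnf ended with total count scaling (edgeR adjusted p from 0.0530 to 0.218). The call of Il2 ended without Ctrl replicate 3 or Dex replicate 1 (0.0591 and 0.0669), that of Il9 without Ctrl replicate 1 or 3 or any Dex library (0.0802 to 0.108), and that of Tnf without Ctrl replicate 2 or 3 or any Dex library (0.0663 to 0.105). Il9 also did not pass in limma voom (adjusted p = 0.206).

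**Figure D3:**
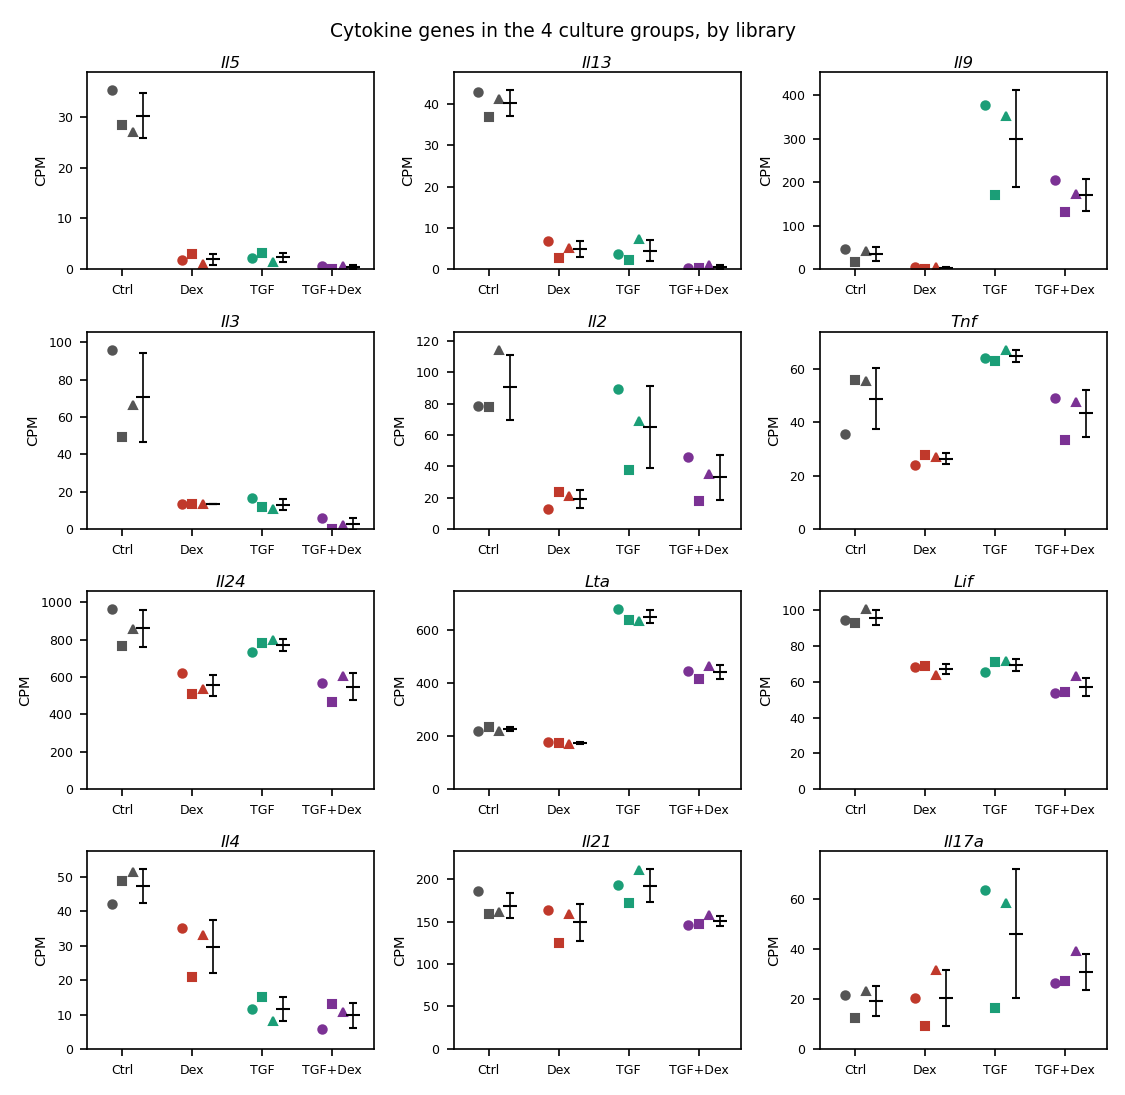
The panels show CPM of 12 cytokine genes on y axes that start at 0, 1 point per library, with the mean and SD of 3 libraries beside each of the 4 culture groups. Il5, Il13 and Il3 are low in every group but Ctrl, while Il9 falls from Ctrl to Dex and stands at 301 CPM in TGF.

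Genes that are switched on when the T cell receptor signals fell in part. Of 25 tested AP-1 and immediate-early genes 4 fell and 0 rose, with a median of -0.14, where 0.91% of all tested genes were lower and their median was 0.00. Nr4a3, an orphan nuclear receptor that reports receptor signals, stood at 38.1, 29.7 and 32.1 CPM in Ctrl and 13.6, 12.3 and 11.4 in Dex (log2 -1.41 ± 0.13, edgeR adjusted p = 9.88e-05). Egr2, a zinc finger factor that limits T cell activation, stood at 38.8, 36.3 and 35.1 CPM in Ctrl and 13.6, 15.1 and 15.6 in Dex (-1.31 ± 0.21, edgeR adjusted p = 0.00656). Both genes were tight within each group and apart between them. Nr4a1, which encodes Nur77, fell from 51.7 ± 7.58 to 31.2 ± 1.05 CPM (-0.73 ± 0.12), and the interferon regulatory factor gene Irf8 from 183 ± 23.8 to 114 ± 13.7 (-0.68 ± 0.12). The third member of the Nr4a family, Nr4a2, stood at 17.5 ± 6.60 and 9.08 ± 2.16 CPM and did not pass (edgeR adjusted p = 0.221).

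Of 38 tested genes of T cell receptor signalling, 5 fell and 1 rose, and the median was -0.03. Of all tested genes 0.91% were lower and 0.919% higher. The genes that fell included both scaffolds that the receptor's kinases use, Lcp2 (SLP-76), from 120.1 ± 4.69 to 74.6 ± 4.86 CPM (log2 -0.69 ± 0.11), and Lat, from 211 ± 4.74 to 153 ± 5.95 (-0.47 ± 0.06). The adaptor gene Sh2d2a fell by 0.30 on the log2 scale, as did the inhibitory receptor gene Cd5, by 0.40. Ptpn22, a phosphatase that dampens receptor signalling, rose from 88.6 ± 3.19 to 135 ± 14.8 CPM (0.61 ± 0.12). Of 25 NF-kB pathway genes 2 fell, Cd83, a surface activation marker, from 38.3 ± 4.36 to 19.7 ± 3.22 CPM (-0.96 ± 0.17), and Tnfaip3, which encodes the NF-kB inhibitor A20, from 70.4 ± 3.71 to 48.9 ± 4.69 (-0.52 ± 0.10). The NF-kB subunit gene Nfkb2 stood at 111 ± 6.39 and 89.0 ± 4.38 CPM and did not pass (edgeR adjusted p = 0.0524), and the NF-kB inhibitor gene Tnip1 at 58.0 and 53.0. Tnip2, of the same family as Tnip1 and picked on its values, rose from 93.3 ± 4.83 to 156 ± 16.7 CPM (0.74 ± 0.09, edgeR adjusted p = 0.000782).

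The genes of these lists that passed had edgeR adjusted p values of 0.0279 or less. With total count scaling none of Nr4a1, Irf8, Lcp2, Lat, Sh2d2a, Cd5, Ptpn22, Cd83 and Tnfaip3 passed (edgeR adjusted p from 0.0549 to 0.360), while Nr4a3, Egr2 and Tnip2 did. The calls of Irf8, Sh2d2a, Ptpn22, Cd83 and Tnfaip3 each ended without 1 of 3 to 6 of the Ctrl and Dex libraries, in every case Ctrl replicate 3 among them (0.0502 to 0.116), and those of Nr4a3, Egr2, Nr4a1, Lcp2, Lat, Cd5 and Tnip2 did not.

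The signature genes of the Th17 lineage were measured without a uniform shift. Of 17 tested Th17 cytokine and regulator genes 2 rose and 1 fell, with a median of -0.03. Of all tested genes 0.919% were higher and 0.91% lower, with a median of 0.00. Ccr6, the chemokine receptor that marks Th17 cells, rose from 9.05 ± 1.82 to 20.3 ± 6.32 CPM (log2 1.16 ± 0.24, edgeR adjusted p = 0.0315), and Tgfb3, described above, rose. Rbpj, the nuclear effector of Notch signals, fell from 225 ± 3.12 to 179.8 ± 6.72 CPM (-0.32 ± 0.07, edgeR adjusted p = 0.0277). Il17a stood at 21.7, 12.5 and 23.4 CPM in Ctrl and 20.4, 9.30 and 31.5 in Dex, and the groups overlapped (edgeR adjusted p = 0.983). Il17f stood at 11.9 ± 7.08 and 23.1 ± 10.8 CPM, and Il23r, the receptor of the cytokine that sustains Th17 cells, at 3.11 ± 0.177 and 4.59 ± 0.594 (edgeR adjusted p = 0.474 and 0.54). None of 14 tested genes of the inflammatory Th17 list passed. Of 10 tested homeostatic Th17 genes Icos and Ccr6 rose and Il9 fell, so the list moved in both directions.

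Among lists of other T cell fates, 5 of 12 tested Th2 genes fell and 0 rose (median -0.66, against 0.91% lower and a median of 0.00 over all tested genes), Il5, Il13, Il9, Il24 and the chemokine receptor gene Ccr8. Ccr8 fell from 144 ± 26.5 to 88.3 ± 8.79 CPM (-0.70 ± 0.13, edgeR adjusted p = 0.0139). None of 12 Th1 genes passed, Tbx21, the Th1 master regulator, standing at 17.4 ± 5.18 and 7.48 ± 3.04 CPM (edgeR adjusted p = 0.311). Of 16 regulatory T cell genes 1 rose, where 0.919% of all tested genes were higher. This was Lrrc32, which encodes the TGF-β docking receptor GARP, from 30.3 ± 0.589 to 45.0 ± 5.32 CPM (0.57 ± 0.13, edgeR adjusted p = 0.041). The cytotoxic granule list had no call among 8 tested genes. In it, Gzmb stood at 655 ± 59.8 and 314 ± 68.4 CPM (edgeR adjusted p = 0.0664), and Nkg7, which is also a marker of CD8 T and NK cells and most of that marker sum, at 119.5 and 60.4 (0.0823), each without overlap, as in 19.3% of all tested genes. Calls ended without 1 of all 3 Ctrl libraries and Dex replicates 1 and 3 for Ccr6, with Dex replicate 2 in place of 3 for Rbpj, and without Ctrl replicate 1 or 3 or Dex replicate 2 or 3 for Ccr8 (edgeR adjusted p from 0.0555 to 0.136). That of Lrrc32 ended without 1 of 8 libraries, all but Dex replicate 2 and the TGF+Dex libraries (0.0526 to 0.161), and none of these 4 genes passed with total count scaling (0.0640 to 0.408).

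Surface receptors and their ligands moved in both directions. Of 15 tested co-inhibitory and co-stimulatory receptor genes 3 rose and 2 fell, where 0.919% of all tested genes were higher and 0.91% lower. Besides Icos, Cd226, an activating receptor of T and NK cells, rose from 14.9 ± 2.45 to 23.7 ± 2.04 CPM (log2 0.68 ± 0.14) and Cd101, an inhibitory receptor, from 5.53 ± 0.666 to 9.62 ± 1.36 (0.81 ± 0.18). Pdcd1lg2, which encodes the PD-1 ligand PD-L2, fell from 14.8 ± 2.67 to 5.78 ± 1.36 CPM (-1.35 ± 0.21, edgeR adjusted p = 0.00633), and Cd200, an inhibitory ligand, from 620.4 ± 60.1 to 449 ± 15.98 (-0.47 ± 0.08). Cd28 stood at 57.8 ± 5.38 and 73.3 ± 3.97 CPM (edgeR adjusted p = 0.0708). Of 25 tested TNF and TNF receptor family genes 4 fell and 0 rose, Tnf and Lta, Cd40, a co-stimulatory receptor best known on B cells, from 14.01 ± 1.64 to 7.05 ± 1.39 CPM (edgeR adjusted p = 0.0396), and Tnfsf8, the CD30 ligand, from 74.6 ± 5.51 to 52.2 ± 2.21 (-0.52 ± 0.10). Lymphotoxin β, encoded by Ltb, stood at 289 and 299 CPM (edgeR adjusted p = 0.796).

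Of 21 tested migration receptors Ccr6 and Ccr7 rose and Ccr8 fell, where 0.919% of all tested genes were higher and 0.91% lower. Ccr7, which guides T cells into lymph nodes, rose by a factor of 1.16, from 565 ± 18.1 to 655 ± 28.8 CPM (log2 0.21 ± 0.05, edgeR adjusted p = 0.0431). Among 5 tested chemokine ligands Cxcl3, a neutrophil attractant, passed, with 2.10, 0.273 and 0.730 CPM in Ctrl and 8.02, 5.47 and 15.6 in Dex (3.28 ± 0.72, edgeR adjusted p = 0.0386). Its Ctrl values were low, and it did not pass in limma voom (adjusted p = 0.111), without a low-count filter (edgeR adjusted p = 0.0994) or with total count scaling (0.0761). Of the genes in this account of receptors and ligands, only Pdcd1lg2 and Icos kept their calls without any 1 of the 12 libraries and with total count scaling. The calls of Cd226 and Cd200 ended without Ctrl replicate 3 or Dex replicate 1, and Cd226 also without Ctrl replicate 2 or Dex replicate 2 or 3 (edgeR adjusted p from 0.0576 to 0.132), and that of Tnfsf8 without Ctrl replicate 1 or 3 or Dex replicate 1 or 2 (0.0654 to 0.0877). Those of Cxcl3, Ccr7, Cd40 and Cd101 ended without 1 of 8 to 11 of the 12 libraries, every Ctrl library and Dex replicate 1 among them (0.0506 to 0.217).

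Cyp11a1 encodes the enzyme that makes pregnenolone from cholesterol in mitochondria, where steroid synthesis begins (chromosome 9, 58006411 to 58027023). It stood at 54.2, 54.0 and 46.0 CPM in the Ctrl libraries and at 19.7, 25.4 and 21.1 in Dex. All Dex libraries were under 30 CPM and all Ctrl libraries above 40, and the log2 fold change was -1.21 ± 0.12 (edgeR adjusted p = 0.00017). The call held without any 1 of the 12 libraries and under total count scaling. It was the only 1 of 9 tested steroid synthesis genes to pass, where 1.83% of all tested genes did. A predicted gene overlaps its exons on the same strand and had 36 counts in the 6 libraries, against 764 of Cyp11a1. Crabp2, which carries retinoic acid to its nuclear receptor, stood at 144, 116 and 141 CPM in Ctrl and 45.1, 41.0 and 54.3 in Dex (-1.52 ± 0.13, edgeR adjusted p = 7.83e-05).

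Other metabolic and structural genes fell by less than 2-fold. Gsn, which encodes the actin-severing protein gelsolin, fell from 232 ± 19.9 to 119.9 ± 8.24 CPM (log2 -0.95 ± 0.09, edgeR adjusted p = 9.88e-05). Slc2a3, the glucose transporter GLUT3, stood at 517, 473 and 481 CPM in Ctrl and 320.0, 325 and 324 in Dex, and the narrow spread made a fall of 1.52-fold 1 of the clearest of the comparison (-0.60 ± 0.05, edgeR adjusted p = 7.83e-05). In the glycolysis and hypoxia list, with 29 tested genes and a median of -0.04, Ero1l, an oxidase of the endoplasmic reticulum, fell (-0.40 ± 0.09) and Ndrg1, a stress-responsive gene, rose (0.53 ± 0.11). For this list and those that follow, 0.919% of all tested genes were higher and 0.91% lower. Ccnd3, cyclin D3, fell by 0.36 on the log2 scale and was the only 1 of 39 tested cell cycle genes to pass, the list median being 0.11. Of 24 apoptosis genes 2 fell, Bcl2l1, which encodes the survival protein Bcl-xL, among them, from 127 ± 8.83 to 93.0 ± 6.02 CPM. Of 32 tested genes of interleukin receptors and cytokine signalling Stat5a fell by 0.50 and Socs2, a feedback inhibitor that Stat5 is known to induce, rose by 0.34 on the log2 scale. Stat5a shares exon bases with Stat3 on the opposite strand and the libraries keep no strand, so reads there cannot be told apart. The edgeR adjusted p values of these 6 genes lay between 0.00437 and 0.0375.

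The other genes named by fold or by count were Rgs16, a brake on G protein signals, which fell from 33.5 ± 0.943 to 14.5 ± 2.21 CPM (log2 -1.19 ± 0.15), Hivep3, a zinc finger factor (-1.03 ± 0.23), and Ppp1cb, a phosphatase subunit (-0.99 ± 0.18). Cd52, a small surface glycoprotein, fell from 766 ± 43.1 to 546 ± 23.5 CPM (-0.49 ± 0.06), Ckb, brain creatine kinase, by 0.43 and the tetraspanin gene Cd82 by 0.28 on the log2 scale. Among proteases and their inhibitors (26 tested, where 0.919% of all tested genes were higher and 0.91% lower), Plaur, Ctla2a and the metalloprotease gene Adam19 rose, the last from 10.5 ± 0.874 to 19.6 ± 1.39 CPM (0.89 ± 0.16), and Ctsz, a cathepsin, fell by 0.30. The reads of Ctsz can include those of Nelfcd on the opposite strand. The edgeR adjusted p values of these 8 genes other than Plaur and Ctla2a were between 0.00065 and 0.0497. Among these genes and those of the metabolic account, Cyp11a1, Crabp2, Gsn, Slc2a3, Rgs16 and Cd52 passed without any 1 of the 12 libraries and with total count scaling. Ccnd3 and Ckb passed without any 1 library but not with total count scaling (edgeR adjusted p = 0.210 and 0.159). Ero1l, Ndrg1, Bcl2l1, Stat5a, Socs2, Hivep3, Cd82, Adam19 and Ctsz passed neither with that scaling (0.0836 to 0.499) nor without each of 2 to 10 libraries, which included Ctrl replicate 3 or Dex replicate 1 in each gene (0.0504 to 0.189), and Ppp1cb did not pass without Ctrl replicate 1 or 3 or Dex replicate 1 or 2 (0.0581 to 0.0699).

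Across the 31 lists that describe functions, 56 of the 189 called genes were members of a list, 22 higher and 34 lower. With the marker lists added, 58 of the 189 were members, beside 550 of the 10332 tested genes. The lists were chosen with earlier results of these data known, so these counts are no result about the lists. Of all tested genes 0.919% were higher and 0.91% lower. No gene passed among the tested members of the receptor and chaperone, inflammatory Th17, Th1, cytotoxic granule, annexin and S100, amino acid and nutrient transport, and cholesterol lists. Of 22 tested interferon response genes Isg20 and Ly6e rose and 0 fell, and of 20 TGF-β pathway genes Tgfb3 and Lrrc32 rose and 0 fell, with the TGF-β co-receptor gene Tgfbr3 at 20.6 ± 0.868 and 29.1 ± 2.10 CPM (edgeR adjusted p = 0.0646). Of 15 stem-like and memory genes Ccr7 rose. Of the 13 T cell markers themselves Cd2 rose by 0.24, and Trbc2, Cd5 and Lat fell by 0.31, 0.40 and 0.47 on the log2 scale, while Cd3e, of the receptor complex, stood at 242 ± 21.4 and 280.4 ± 13.98 CPM (edgeR adjusted p = 0.189). The calls of Cd2 and Trbc2 ended with total count scaling and without 1 of 10 and 6 libraries, every Ctrl library among them (edgeR adjusted p from 0.0506 to 0.494).

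**Figure D4:**
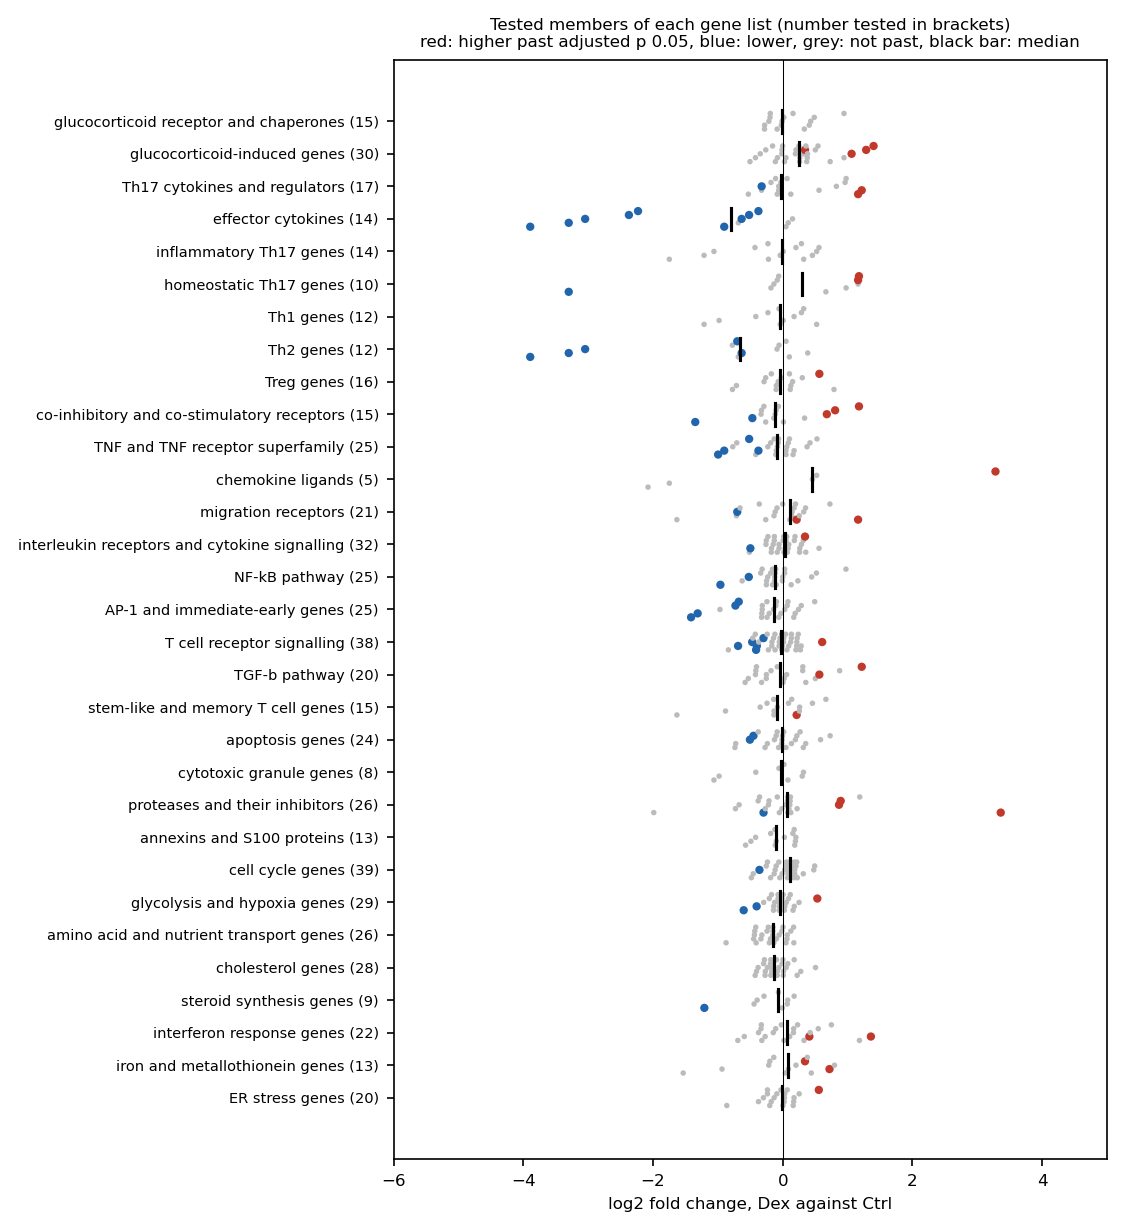
Each point is a tested gene of a list, placed by its log2 fold change of Dex against Ctrl, red where higher and blue where lower past the threshold, with a black bar at the list median and the number tested in brackets. The effector cytokine and Th2 lists have medians of -0.79 and -0.66, most lists lie near 0, and Ifng, at 0 in all Dex libraries, is counted but not drawn.

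Some called genes lay side by side in the genome. Among 10686 pairs of tested genes whose bodies lie within 50 kb without overlap, a distance set after the calls were seen, both genes were called in 9 pairs (0.0842%), and both moved the same way in all 9. Of all tested genes 1.83% were called, which is a share of genes and not of pairs. The share of all neighbour pairs that moved the same way was not computed, so the 9 pairs have no share to be set against. Rad50 is in more than 1 pair, so the 9 are not separate cases, and whether neighbours move together was not tested. The pairs that rose were Irgc1 and Plaur on chromosome 7, Neb and Arl5a on chromosome 2, Fkbp1a and Sdcbp2 also on chromosome 2, Adamtsl4 and Ecm1 on chromosome 3, Sytl1 and Tmem222 on chromosome 4, and Paxbp1 with a RIKEN clone on chromosome 16. The pairs that fell were Tnf and Lta on chromosome 17, and Il13 with Rad50 and Rad50 with Il5 on chromosome 11. Rad50, a DNA repair gene that lies between both cytokine genes, fell from 34.6 ± 2.31 to 21.7 ± 1.73 CPM (log2 -0.67 ± 0.12, edgeR adjusted p = 0.0127). Arl5a, a small GTPase gene 19477 bases from Neb, rose from 5.31 ± 0.485 to 10.1 ± 0.265 CPM (0.92 ± 0.17, edgeR adjusted p = 0.0149). Sdcbp2, a scaffold protein gene, rose from 93.2 ± 8.60 to 155 ± 11.6 CPM (0.74 ± 0.09, edgeR adjusted p = 0.000755). Gene positions do not show whether reads of 1 transcript run into its neighbour, which was not tested. Without 1 library, Rad50 lost its call in 3 fits, Arl5a and Irgc1 in 4, Sytl1 and Tmem222 in 6 and Paxbp1 in 10 of the 12.

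Few called genes rested on almost no counts in 1 group. Irgc1, a gene of the interferon-inducible GTPase family, had 2, 0 and 0 counts in the Ctrl libraries and 12, 19 and 9 in Dex (edgeR adjusted p = 0.0122). Gm48715 had 10, 18 and 20 counts in Ctrl and Gm45620 4, 8 and 4, and both were at 0 in all Dex libraries, at least 4.88-fold and 1.67-fold lower against a floor of 3 counts a library. These 3 genes were named after their values were seen. Further genes outside the lists, likewise picked on their values, were Inhba, which encodes the activin A subunit, and Nos2, the inducible nitric oxide synthase. Inhba stood at 354, 284 and 390.0 CPM in Ctrl and 207, 169.9 and 220.1 in Dex, without overlap (log2 -0.78 ± 0.13, edgeR adjusted p = 0.00798, and 0.0560 with total count scaling). Nos2 fell from 14.2 ± 2.45 to 8.42 ± 0.608 CPM (-0.74 ± 0.16, edgeR adjusted p = 0.0419), a call that ended without 1 of 11 of the 12 libraries.

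The same drug was also given beside TGF-β1, in 6 other libraries that share no control with the comparison above. Between TGF+Dex and TGF, 32 genes were higher (0.31% of 10332) and 23 lower (0.223%), 0.532% in all. Of the 95 genes higher with dexamethasone alone, 90 had a positive fold change beside TGF-β1 (94.7%, against 49.3% of all tested genes), and of the 94 lower genes 89 had a negative one (94.7%, against 50.7%). The median log2 fold change of these genes there was 0.46 and -0.37. Among the higher genes 28 passed in both comparisons, 29.5% of the 95 and 87.5% of the 32, and among the lower genes 16, 17.0% of the 94 and 69.6% of the 23. None passed in opposite directions. Plaur rose from 3.14 to 22.5 CPM (log2 2.84, edgeR adjusted p = 9.89e-05), Icos from 54.4 to 108 (0.99, 0.000235), Tsc22d3 from 47.4 to 105 (1.15, 0.000515) and Fth1 from 679.9 to 1082 (0.67, 0.000763) beside TGF-β1. Cyp11a1 fell from 61.6 ± 4.00 to 41.1 ± 2.65 CPM (-0.58 ± 0.11, edgeR adjusted p = 0.0396).

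The cytokine genes differed in their starting level. With TGF-β1, Il5, Il13 and Il3 stood at 2.32, 4.45 and 13.1 CPM before dexamethasone, against 30.2, 40.3 and 70.7 in Ctrl, and at 0.437, 0.581 and 2.81 CPM with it. Their log2 fold changes beside TGF-β1, between -2.22 and -2.70, did not pass (edgeR adjusted p from 0.0735 to 0.178). Il9 stood at 301 CPM in TGF and 170.1 in TGF+Dex (-0.82, edgeR adjusted p = 0.445), and Lta fell from 648 to 440.2 (-0.56, edgeR adjusted p = 0.000466). The effect was smaller in size beside TGF-β1 in 85 of the 95 higher and 87 of the 94 lower genes, which were chosen on the comparison without TGF-β1. The difference of both effects, tested as an interaction, passed in 0 of 10332 genes in edgeR and in limma voom and in 6 in DESeq2. An unadjusted p under 0.05 was reached by 552 genes (5.34%) in edgeR, 60 of the 189 called genes among them. The called genes were chosen on the Dex and Ctrl libraries, which also enter the interaction. Their share therefore cannot be set against that of all genes. The smallest edgeR adjusted p of the interaction was 0.0978, for Nr4a3, which fell to 0.376 of its Ctrl level with dexamethasone alone and stood at 49.9 ± 2.66 CPM in TGF and 43.9 ± 3.55 in TGF+Dex.

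**Figure D5:**
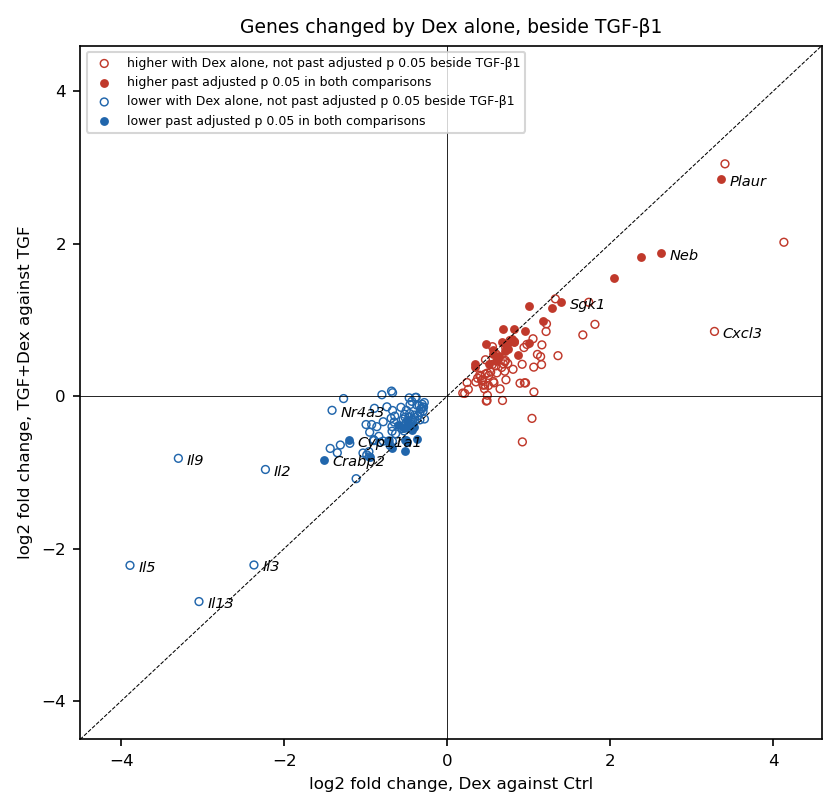
Each point is a gene called with dexamethasone alone, with its log2 fold change of Dex against Ctrl on the x axis and of TGF+Dex against TGF on the y axis; filled points passed in both comparisons, and the dashed line marks equal effects. Most points have the same sign in both comparisons and lie nearer to the x axis than the line, and Gm48715 and Gm45620, at 0 in all Dex libraries, are not drawn.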

How the data were processed

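Polyadenylated RNA of sorted cells was turned into libraries by a modified SMART-Seq2 protocol with Nextera XT tagging, per the labels' protocols. As usually run, this method keeps no strand. The deposited values are raw counts per gene symbol in 1 table of 31053 symbols for the in vitro libraries, and RSEM 1.3.3 and mm10 are listed in the submitters' processing notes. How RSEM's estimates became whole counts, and the annotation used, are not given in the sources used here. Columns were tied to libraries through their labels, and the number of columns with no library was 0. The tables of the other experiments were not used here.

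The analysis used edgeR 4.0.16 under R 4.3.3. The filterByExpr rule selected genes over the 4 culture groups of 3 libraries, and TMM-scaled counts were fitted by robust quasi-likelihood over all 12 in vitro libraries. Dex against Ctrl, TGF+Dex against TGF and their interaction were tested two-sided, with Benjamini-Hochberg adjustment over 10332 genes and a threshold of 0.05. Levels are CPM with the TMM factor, as mean ± SD over 3 libraries, and effects are log2 fold changes ± SE. Replicates differed by more than sampling noise and none was merged. Floors cover counting error only. Positions come from GENCODE M21 on GRCm38, which placed 30416 symbols, and promoters from RefSeq.

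Genes named were Nr3c1, Tsc22d3 and Cyp11a1, up to 12 genes per direction by fold among called genes whose mean log2 CPM reached 4, up to 8 more per direction by level, and list members past the threshold. Predicted genes, RIKEN clones, receptor segments and pseudogenes were left out, except Trbc2, Gm48715 and Gm45620, picked on their values. Some genes that meet this rule are not reported here. There were 36 lists with 718 genes, 5 of them marker lists, described by counts and medians without a set test. The comparison and the lists were chosen with earlier results of these data known. Alternatives were total count, upper quartile and RLE scaling, no filter or a mean count of 50, DESeq2 1.42.0, limma voom (limma 3.58.1), a replicate block, the compared groups alone, a fit without the repeat-like predicted genes, and each library left out in turn. The tests were checked on simulated counts.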

Additional observations from a re-analysis of the deposited data

How the results depend on the processing

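Of 89 called genes followed through 22 alternatives, or 21 for 10 genes that a mean count filter of 50 removed, 27 kept their call in each that was run, 13 lost it once, and none changed direction. The counts of genes higher and lower with dexamethasone alone, 95 and 94, were 37 and 18 with total count scaling, and 66 and 61 in a fit of the compared groups alone. Leaving out 1 library gave 41 to 94 higher and 37 to 90 lower. Beside TGF-β1 the counts of 32 higher and 23 lower became 11 and 4 with total count scaling, 51 and 43 in DESeq2, and 16 and 6 in the compared groups alone, and the 23 became 37 with a mean count filter of 50. Leaving out 1 library gave 13 to 34 and 9 to 23. The interaction, with 0 genes, passed in 4 genes without a low-count filter, 6 in DESeq2 and 2 with a replicate block, and in 0 to 1 genes when 1 library was left out. Il17a, which did not pass, had a log2 fold change of 0.07, of -0.087 in limma voom, -0.17 without Ctrl replicate 2 and -0.38 without Dex replicate 3, and from -0.38 to 0.43 over all fits without 1 library. The cause of these shifts was not tested.

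The labels do not say whether a replicate number marks a shared culture, and the main fit had no term for it. Libraries with the same number had deviations correlated at -0.02 to 0.07 over 18 pairs, most of them positive. Other pairs ranged from -0.07 to 0.03, and most were negative. Pairing by number was therefore not excluded. The replicate block gave 96 higher and 115 lower genes with dexamethasone alone, against 95 and 94 without it. Beside TGF-β1 it gave 35 and 31, against 32 and 23. With the block Adamtsl4, Ccr7, Cd2, Nos2, Paxbp1 and Sytl1 did not pass (edgeR adjusted p from 0.0519 to 0.0776). In limma voom Ccr6, Cxcl3, Enpp2 and Il9 did not pass, and in DESeq2 Cd226 and Sytl1. With 3 libraries a group at this depth, genes near the floor, such as Nr3c1 and Fkbp5, were measured on few counts, and a change of such a gene may not have been detectable.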
